A study of Mus musculus with 10 samples.

Results

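The effect of Bap1 knockout during acute liver injury was examined by bulk RNA-seq in 6 of the 10 livers of the series, 3 sgBap1-CCl4 livers and 3 NTC-CCl4 livers. The 6 were taken by their labels, which give the guide RNA as sgBap1 or NTC, a non-targeting control, and the treatment as CCl4, carbon tetrachloride. All 10 livers came from female mice, 16 to 20 weeks old, that carried a Cas9 gene kept silent by a loxP-flanked stop. Each received a tail vein injection of an AAV8 virus holding the guide and a Cre recombinase under the TBG promoter, which is active in hepatocytes. CCl4 mixed 1 to 9 with olive oil, or olive oil alone (Veh), was injected into the peritoneum 10 days later in a volume of 10 µL for each g of mouse, and livers were collected after another 48 hours. The 2 NTC-Veh and 2 sgBap1-Veh livers, which were given virus and olive oil only, are used here for comparison. Editing was directed to hepatocytes, so the other cells of an sgBap1 liver keep Bap1. The paper reports that the target sequence was edited only in part, so some hepatocytes may keep Bap1 too. The RNA of the whole liver mixes all of these cells.

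Bap1 encodes a nuclear deubiquitinase that removes ubiquitin from histone H2A and so opposes the repressive mark laid down by Polycomb repressive complex 1. It works in a complex with Asxl proteins and binds partners such as Hcfc1, Ogt and the Foxk factors. CCl4 is converted by Cyp2e1 in the hepatocytes around the central vein to a radical that kills these cells, after which stress genes are induced, macrophages clear the debris and the surviving hepatocytes divide.

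Levels are given as CPM, estimated counts scaled to the TMM-normalized library, in each liver, in the order of replicates 1, 2 and 3. Differences are log2 fold changes of sgBap1 against NTC with their standard error (SE), from a single edgeR quasi-likelihood model of the 4 groups. Its p-values are two-sided and were adjusted by the Benjamini-Hochberg method across 17015 genes, and a gene was called when its adjusted p was under 0.05. The labels do not say whether the livers of a group were handled in separate experiments, so the p-values measure the spread between these livers. The 6 CCl4 libraries held 33322273 to 52199904 estimated counts, and the floor of 3 counts corresponded to 0.0511 to 0.0781 CPM in them.

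The labelled tissue and treatment were seen in the RNA. Albumin (Alb) measured 55036 to 69949 CPM in the 6 injured livers. Cyp2e1, the pericentral enzyme that activates CCl4, measured 133, 222 and 202 CPM in NTC-CCl4 and 69.4, 118 and 147 CPM in sgBap1-CCl4 livers, against 10200.3 and 9289 CPM in NTC-Veh livers. Top2a, a gene of dividing cells, measured 61.1, 32.9 and 50.4 CPM in NTC-CCl4 and 37.9, 48.2 and 35.8 CPM in sgBap1-CCl4 livers, against 1.58 and 1.36 CPM in NTC-Veh livers. All 6 injured livers therefore carried little of the pericentral enzyme and much of the proliferation gene.

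sgBap1-CCl4 replicate 2 stood apart from the other injured livers. It carried fat-cell transcripts. Adiponectin (Adipoq), a hormone of fat cells, measured 0, 36.4 and 0.0425 CPM in the sgBap1-CCl4 livers and 0, 0.0188 and 0.026 CPM in the NTC-CCl4 livers. Ucp1, the uncoupling protein of brown fat, measured 0, 83.9 and 0 CPM and 0, 0.0188 and 0 CPM. The fatty acid carrier Fabp4 measured 13.3, 256 and 13.8 CPM and 11.4, 15.8 and 11.2 CPM. Of the 16 adipocyte markers, 15 were highest in this liver, and their summed level was 1024 CPM there, against 85.6 to 123.7 CPM in the NTC-CCl4 livers and 71.0 to 119.4 CPM in the other sgBap1-CCl4 livers. The exception was Pparg, at 15.9, 20.4 and 15.7 CPM in NTC-CCl4 and 9.31, 11.5 and 14.6 CPM in sgBap1-CCl4 livers. The same liver was also highest for 11 of 14 stellate cell and fibroblast markers, summing to 2103 CPM against 807 to 1046 CPM in the other 5, and lowest for 15 of 16 secreted hepatocyte proteins. On the first principal component of the 6 livers, which held 36.9% of the variance, it had a score of 56.3, and the others ranged from -32.8 to 14.9. For several results below, values with and without this liver are given.

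**Figure D1:**
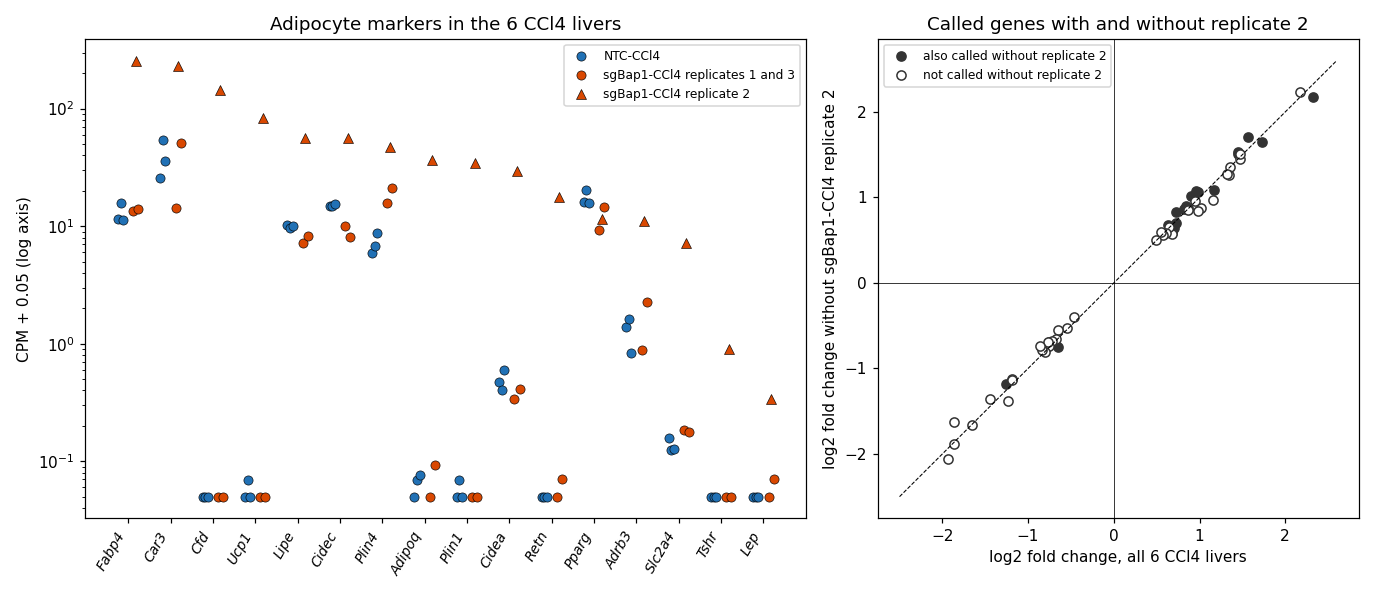
Left, the CPM of 16 adipocyte markers (0.05 added, log axis) in each of the 6 CCl4 livers, with NTC-CCl4 in blue, sgBap1-CCl4 in orange and sgBap1-CCl4 replicate 2 as triangles. Right, the log2 fold change of the 56 called genes with all 6 livers (x axis) and without replicate 2 (y axis), with the 20 genes called both ways filled. Replicate 2 lies above the other livers for 15 of the 16 markers. The called genes, which were chosen with replicate 2 included, lie along the dashed line of equal values.

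Bap1 itself (ENSMUSG00000021901.10, GRCm38 chromosome 14, 31251450 to 31259944) was the first check of the labels. It measured 30.1, 31.5 and 29.5 CPM in NTC-CCl4 and 16.99, 21.8 and 19.1 CPM in sgBap1-CCl4 livers. The groups did not overlap, and sgBap1-CCl4 livers retained 63.6% of the NTC-CCl4 mean. The log2 fold change was -0.65 (SE 0.10, adjusted p = 0.0295), and -0.75 (adjusted p = 0.0287) without sgBap1-CCl4 replicate 2, the sgBap1-CCl4 liver with the most Bap1. The call was lost without NTC-CCl4 replicate 1, 2 or 3 (adjusted p = 0.147, 0.0751 and 0.0732) or sgBap1-CCl4 replicate 1 (adjusted p = 0.0917), with log2 fold changes from -0.67 to -0.57. In a bulk sample, fewer cells of a type and less RNA per cell cannot be told apart. The cells that Cre does not reach, and any hepatocytes left unedited, are in the same sample. Of the other 10 tested members of the Bap1 complex list, none was called. Foxk1 and Foxk2, forkhead factors that recruit the complex to DNA, had log2 fold changes of -0.23 (adjusted p = 0.363) and 0.23 (adjusted p = 0.38). None of the 30 Polycomb PRC1 and PRC2 genes was called, with a median log2 fold change of 0.01.

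Across all tested genes, 56 were called, 0.329% of 17015, with 34 higher in sgBap1-CCl4 livers (0.2%) and 22 lower (0.129%). Their absolute log2 fold changes ran from 0.46 to 2.33, and 23 of the 56 changed by at least 1. The groups did not overlap for any of the 56, whereas 20.3% of all tested genes had no overlap. The adjusted p ran from 0.00287 to 0.0497. The number of calls depended on single livers. It was 1 without NTC-CCl4 replicate 1, 16 without replicate 2 and 2 without replicate 3. It was 2 without sgBap1-CCl4 replicate 1, 24 without replicate 2 and 71 without replicate 3. All 56 kept their direction in each case. This was fixed beforehand, since groups that do not overlap keep their order when a liver is left out. Many more genes had an unadjusted p under 0.05, 1076 higher (6.32%) and 1300 lower (7.64%). DESeq2's Wald test, the tool of the study's methods, called 480 genes, 200 higher and 280 lower, which included all 56. Scaling by library size alone called 62, with 31 higher and 31 lower.

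**Figure D2:**
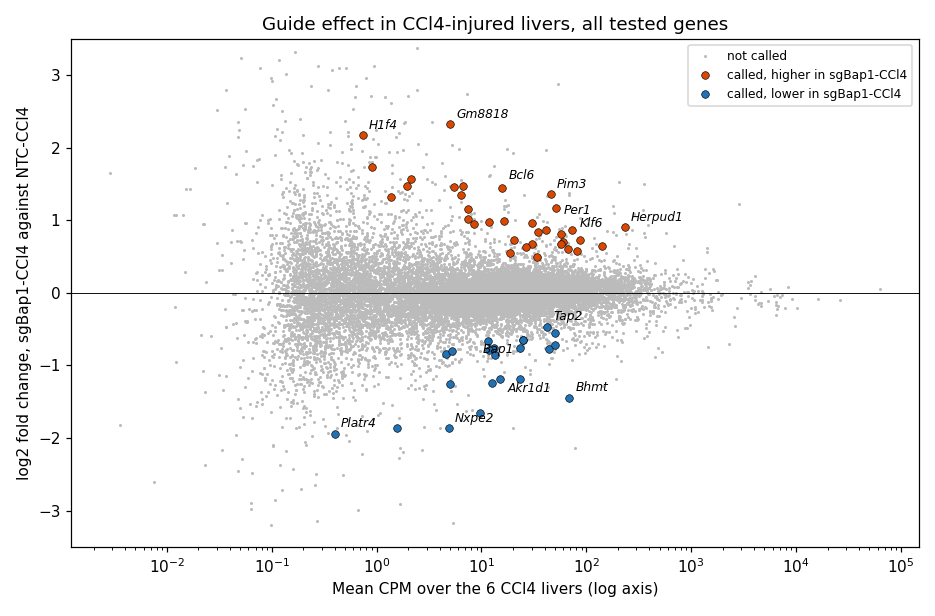
Mean CPM over the 6 CCl4 livers (log axis) against the log2 fold change of sgBap1-CCl4 against NTC-CCl4 for the tested genes, with called genes in orange (34 higher) and blue (22 lower). The called genes span levels from under 1 CPM to Herpud1 at over 100 CPM, and 37 genes beyond the axis limits of 3.5, none of them called, are not drawn.

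Transcriptional regulators were among the genes that rose. Per1, the light- and hormone-responsive repressor of the circadian clock, had the smallest p of all genes. It measured 34.4, 29.2 and 31.5 CPM in NTC-CCl4 and 69.01, 78.3 and 66.1 CPM in sgBap1-CCl4 livers, and the log2 fold change was 1.17 (SE 0.09, adjusted p = 0.00287). It was the single called gene that stayed past the threshold with each of the 6 CCl4 livers left out in turn. Its level in sgBap1-CCl4 livers lay near that of uninjured NTC-Veh livers, 63.8 and 66.9 CPM, so that the NTC-CCl4 livers were the low ones. Of the 20 circadian clock genes tested, Per1 alone was called. Bhlhe40, Nr1d1 and Cry2 had log2 fold changes of -0.35, 0.29 and 0.29 with adjusted p of 0.135, 0.287 and 0.343.

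Bcl6, a zinc finger repressor that competes with STAT5 at growth hormone targets in liver, measured 7.08, 10.1 and 8.30 CPM in NTC-CCl4 and 26.3, 21.3 and 21.8 CPM in sgBap1-CCl4 livers. Uninjured livers had 5.17 and 6.82 CPM with NTC and 25.3 and 18.5 CPM with sgBap1, so in both treatments every sgBap1 liver held more than 2 times the level of any NTC liver. The log2 fold change was 1.45 (SE 0.17, adjusted p = 0.0188) after CCl4. Bcl6 was the only one of 18 genes of growth hormone and STAT5 signalling that was called. Stat5a, one of the STAT5 factors, had a log2 fold change of -0.26 (adjusted p = 0.174), and Igfals, an Igf1 carrier that growth hormone induces, -0.48 (adjusted p = 0.195).

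Other regulators rose too. Klf15, a Krüppel-like factor of amino acid and glucose metabolism, measured 42.8, 45.05 and 37.9 CPM in NTC-CCl4 and 71.4, 68.1 and 81.98 CPM in sgBap1-CCl4 livers (log2 fold change 0.81, adjusted p = 0.0256). Foxo1, the insulin-restrained activator of gluconeogenic genes, measured 33.05, 26.8 and 27.1 CPM and 51.4, 51.8 and 54.8 CPM (0.86, adjusted p = 0.0189). Cebpd, a C/EBP factor of the acute-phase response, measured 4.03, 5.75 and 3.88 CPM and 9.25, 12.7 and 8.69 CPM (1.16, adjusted p = 0.0392). NTC-Veh livers measured 179 and 187 CPM for Klf15, above both injured groups, 54.3 and 42.1 CPM for Foxo1, near the sgBap1-CCl4 level, and 5.72 and 4.85 CPM for Cebpd, near the NTC-CCl4 level. Klf6, an immediate early Krüppel-like factor, measured 43.9, 50.1 and 60.4 CPM and 108, 95.6 and 78.5 CPM (0.87, adjusted p = 0.0493). Banp, a nuclear matrix protein that binds unmethylated CpG promoters, measured 3.82, 5.22 and 5.75 CPM and 8.68, 11.9 and 9.33 CPM (1.02, adjusted p = 0.0469).

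**Figure D3:**
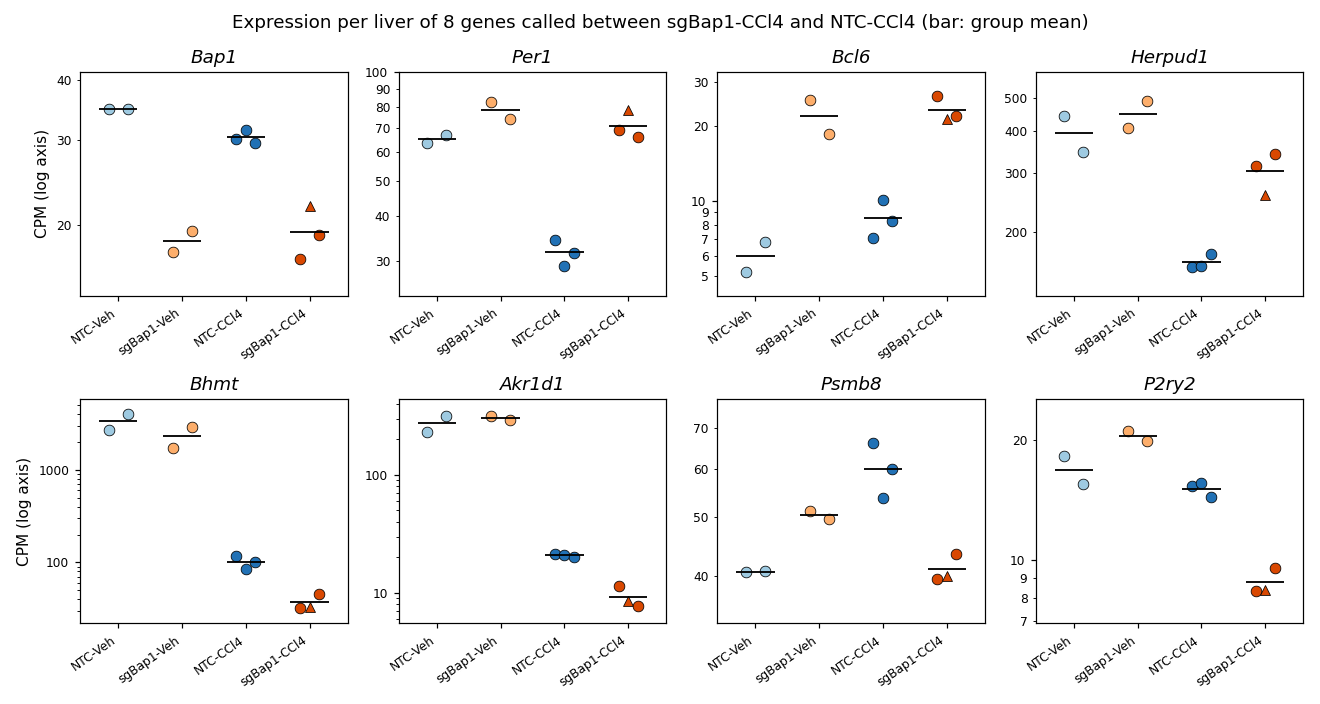
CPM (log axis) of 8 called genes in each of the 10 livers by group, with the group mean as a bar and sgBap1-CCl4 replicate 2 as a triangle. Per1 and Herpud1 are lowest in the NTC-CCl4 livers, Bcl6 is high in both sgBap1 groups, Bhmt and Akr1d1 are low after CCl4 and lowest with sgBap1, and Psmb8 is high in the NTC-CCl4 livers.

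The upstream sequence of several of these genes holds short elements bound by known regulators, and 5 stretches are shown because they carry such an element beside a gene that rose. RefSeq windows on GRCm38.p6, from 250 bases before to 50 bases after each start site, were at hand for 46 of the 56 called genes. The capitals mark the E-box CACGTG, the palindrome bound by Clock and Bmal1 and by other basic helix-loop-helix factors, in Per1 (chr11:69098753-69098872, + strand), Klf15 (chr6:90462326-90462575, + strand), Bcl6 (chr16:23988853-23988942, - strand) and Hsph1 (chr5:149636316-149636364, - strand), and in Herpud1 (chr8:94386349-94386428, + strand) the core TGGNCCACG of the ER stress element II, which unfolded protein response factors bind.
Per1: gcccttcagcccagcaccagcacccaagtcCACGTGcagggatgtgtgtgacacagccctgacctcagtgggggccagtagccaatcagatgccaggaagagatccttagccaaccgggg
Klf15: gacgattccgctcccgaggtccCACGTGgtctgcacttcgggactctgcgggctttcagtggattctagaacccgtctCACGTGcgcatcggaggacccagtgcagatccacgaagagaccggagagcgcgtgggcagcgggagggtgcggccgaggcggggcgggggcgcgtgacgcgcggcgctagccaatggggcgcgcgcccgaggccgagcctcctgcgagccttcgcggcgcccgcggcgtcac
Bcl6: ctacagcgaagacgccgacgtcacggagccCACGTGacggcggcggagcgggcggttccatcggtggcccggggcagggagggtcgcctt
Hsph1: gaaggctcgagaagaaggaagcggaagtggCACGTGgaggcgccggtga
Herpud1: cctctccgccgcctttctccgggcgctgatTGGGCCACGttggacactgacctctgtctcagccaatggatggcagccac

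An E-box was found in 9 of the 30 higher genes with a window (30%) and in 4 of the 16 lower genes (25%), Bap1 among the lower ones, against 11.2% of the 11950 tested genes with a window. Over all 32851 windows the share was 7.15%. The core of the ER stress element II was in Herpud1 alone among the called genes and in 1.05% of the tested genes. Searches on both strands for the heat shock element GAANNTTC found 3 of 30 higher genes, and for the cyclic AMP response element TGACGTCA also 3 of 30, with none of the 16 lower genes for either. The shares among tested genes were 7.17% and 3.32%, and among all windows 7.86% and 1.79%. The STAT and BCL6 element TTCNNNGAA was in 4 of 30 higher and 1 of 16 lower genes, against 8.49% of tested genes and 8.3% of all windows, and Bcl6 itself was among the 4. The marked elements do not overlap each other, and a match is a description of these letters.

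Called genes with roles in protein folding or the endoplasmic reticulum (ER) are given next. Herpud1, an ER membrane protein that helps degrade misfolded proteins, measured 157, 158 and 172 CPM in NTC-CCl4 and 315, 257 and 341 CPM in sgBap1-CCl4 livers (log2 fold change 0.91, SE 0.14, adjusted p = 0.0322). Uninjured NTC-Veh livers had 442 and 345 CPM, so both injured groups lay below them. The noncoding RNA Gm15889, whose gene lies next to Herpud1 at 94377872 to 94380317 of chromosome 8, moved the same way, from 1.43, 0.77 and 0.989 CPM to 2.93, 2.50 and 4.04 CPM (1.57, adjusted p = 0.0353). Hsph1, a large chaperone that works with Hsp70 proteins, measured 43.8, 45.7 and 46.7 CPM and 75.2, 80.8 and 65.96 CPM (0.71, adjusted p = 0.0188). Its co-chaperone partner Dnajb1 measured 22.2, 22.6 and 25.7 CPM and 36.8, 42.5 and 33.5 CPM (0.68, adjusted p = 0.0278). Retreg1, a receptor for autophagy of the ER, measured 47.4, 53.5 and 57.4 CPM and 87.1, 82.5 and 70.9 CPM (0.60, adjusted p = 0.0497). In each of these genes the lowest sgBap1-CCl4 liver was above the highest NTC-CCl4 liver.

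Among the 20 tested genes of ER stress and the ATF4 pathway, Herpud1 and Phgdh were called, beside 0.2% of all genes called higher, and 7 had an unadjusted p under 0.05, all higher, beside 6.32% of all genes. The median log2 fold change of the list was 0.30, and 0.32 without sgBap1-CCl4 replicate 2, beside 0.00 over all tested genes. Ppp1r15a, which restores translation after stress, had a log2 fold change of 0.74 (adjusted p = 0.0932), the ER chaperone gene Hspa5 0.32 (0.376) and Atf5 0.04 (0.952). Chac1, a glutathione-degrading ATF4 target, had the largest value of the list, 1.62 (adjusted p = 0.243), with 16.6, 28.5 and 10.1 CPM in the sgBap1-CCl4 livers against 4.50, 8.49 and 4.92 CPM.

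Several metabolic enzymes and a transporter were also among the called genes. Phgdh, the first enzyme of serine synthesis, measured 7.57, 9.19 and 7.21 CPM in NTC-CCl4 and 14.8, 18.8 and 13.8 CPM in sgBap1-CCl4 livers (0.98, adjusted p = 0.0347), and 0.191 and 0.139 CPM in NTC-Veh livers. Injured livers of both guides thus carried more of it than uninjured ones. In GENCODE vM21, 47.8% of its stretches of 50 bases also occur in other genes, mainly the pseudogenes Gm7901, Gm9347 and Gm8341, so its count is uncertain. Got1, the cytosolic aspartate aminotransferase, measured 102, 116 and 113 CPM and 165, 173 and 182 CPM (0.65, adjusted p = 0.0353). Pfkfb2, which sets the level of the glycolytic activator fructose bisphosphate, measured 22.8, 19.3 and 20.6 CPM and 34.3, 30.8 and 32.4 CPM (0.64, adjusted p = 0.0248). Of the 50-base stretches of Pfkfb2, 15.9% also occur in other genes, mainly Gm29427, which overlaps Pfkfb2 on the same strand. The neighbour of Pfkfb2 on chromosome 1, AA986860, lies on the other strand. AA986860 measured 3.56, 2.99 and 4.09 CPM and 10.1, 9.21 and 10.1 CPM (1.47, adjusted p = 0.0353). Slc25a51, the mitochondrial carrier of NAD, measured 68.6, 63.3 and 66.5 CPM and 109, 114 and 106 CPM (0.73, adjusted p = 0.0188). Etfbkmt, a mitochondrial methyltransferase of the electron transfer flavoprotein, measured 10.3, 10.5 and 12.4 CPM and 19.3, 19.6 and 27.02 CPM (0.99, adjusted p = 0.0248). Sult1d1, a sulfotransferase, showed the smallest of the increases, from 26.6, 28.6 and 29.9 CPM to 39.1, 38.9 and 41.5 CPM (0.49, adjusted p = 0.0347).

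Pim3, a serine/threonine kinase that promotes survival, measured 23.2, 31.1 and 23.3 CPM in NTC-CCl4 and 63.5, 66.1 and 69.2 CPM in sgBap1-CCl4 livers (1.36, SE 0.18, adjusted p = 0.023). In uninjured livers it measured 82.9 and 83.6 CPM with NTC and 71.3 and 42.6 CPM with sgBap1, so the order of the guides was the opposite there. That difference was not called (-0.55, adjusted p = 0.337). Ip6k2, an inositol phosphate kinase, measured 20.7, 17.7 and 23.1 CPM and 42.6, 33.3 and 43.7 CPM (0.96, adjusted p = 0.0189). Rcan1, an inhibitor of calcineurin, measured 41.7, 46.4 and 43.4 CPM and 68.8, 80.1 and 61.5 CPM (0.68, adjusted p = 0.032). Ticam1, the adaptor through which some Toll-like receptors induce interferon, measured 14.3, 14.7 and 16.3 CPM and 23.6, 21.1 and 21.9 CPM (0.56, adjusted p = 0.032). Tmc7, a transmembrane channel-like gene, measured 6.25, 5.05 and 6.01 CPM and 10.7, 10.8 and 11.8 CPM (0.94, adjusted p = 0.0256). Cep85l, Tbc1d8 and Ap3m1, genes of the centrosome, of Rab regulation and of vesicle coats, had log2 fold changes of 0.84, 0.72 and 0.58, with adjusted p of 0.0188, 0.0347 and 0.0353. Ap3m1 shares 12.2% of its 50-base stretches, with Ap3m1-ps.

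The largest increases were in genes at low levels. Gm8818, a processed pseudogene on chromosome 1, measured 0.853, 2.54 and 1.59 CPM in NTC-CCl4 and 9.36, 10.2 and 5.70 CPM in sgBap1-CCl4 livers (2.33, SE 0.33, adjusted p = 0.0188). The linker histone gene H1f4, whose main transcripts lack a poly(A) tail, measured 0.256, 0.244 and 0.312 CPM and 1.69, 1.13 and 0.808 CPM (2.18, adjusted p = 0.0445). S100g, a calcium-binding protein, measured 3.26, 3.64 and 4.01 CPM and 10.1, 10.2 and 7.27 CPM (1.34, adjusted p = 0.023). All 3 were under 1 CPM in every uninjured liver. Klrg2, Zan, Gm16573 and 9430037G07Rik also rose, with log2 fold changes of 1.73, 1.32, 1.47 and 1.45. Other annotated genes hold 22.95% of the 50-base stretches of Gm8818 and 34% of those of the noncoding RNA 9430037G07Rik, and Gm16573 overlaps Parp4 on the other strand.

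Among the genes that fell was Bhmt, which remethylates homocysteine with betaine. It measured 116, 84.6 and 100.2 CPM in NTC-CCl4 and 32.2, 32.7 and 45.9 CPM in sgBap1-CCl4 livers (-1.44, SE 0.24, adjusted p = 0.0479). Uninjured NTC-Veh livers had 2719.8 and 4002 CPM, so the injured livers of both guides were at a small part of that level and the sgBap1 ones lowest. Gm5096, annotated as protein coding on chromosome 18, went from 18.2, 11.97 and 14.2 CPM to 4.17, 4.71 and 5.19 CPM (-1.66, adjusted p = 0.021). Since 25.3% of the stretches of 50 bases of Bhmt are shared, mainly with Gm5096, Bhmt-ps1 and Bhmt2, reads of Bhmt and Gm5096 may have been split between them. Akr1d1, the steroid reductase of bile acid synthesis, measured 21.5, 20.9 and 20.3 CPM and 11.4, 8.47 and 7.69 CPM (-1.18, adjusted p = 0.021), against 232 and 317 CPM in NTC-Veh livers. Ces2g, a carboxylesterase, measured 50.95, 64.5 and 50.2 CPM and 33.7, 28.5 and 35.03 CPM (-0.77, adjusted p = 0.0347). Smpd3, a neutral sphingomyelinase, measured 22.04, 13.6 and 16.97 CPM and 7.02, 8.83 and 6.46 CPM (-1.24, adjusted p = 0.0353). No sgBap1-CCl4 liver reached the lowest NTC-CCl4 liver for any of these.

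Cdcp1, a transmembrane substrate of Src kinases, measured 8.10, 7.03 and 6.27 CPM in NTC-CCl4 and 3.22, 2.69 and 3.08 CPM in sgBap1-CCl4 livers (-1.25, SE 0.13, adjusted p = 0.0188). P2ry2, a receptor for extracellular ATP and UTP, measured 15.3, 15.6 and 14.3 CPM and 8.34, 8.40 and 9.54 CPM (-0.78, adjusted p = 0.0188). Fzd7, a Wnt receptor, measured 17.3, 16.6 and 15.9 CPM and 9.67, 9.62 and 10.2 CPM (-0.76, adjusted p = 0.023). For these 3 genes the livers of a group lay close together and the groups were well apart. Spon2, a secreted matrix protein, measured 35.1, 31.99 and 30.3 CPM and 11.8, 13.1 and 17.7 CPM (-1.19, adjusted p = 0.0445). Tjp3, a tight junction scaffold, measured 18.8, 17.7 and 15.7 CPM and 10.7, 7.96 and 10.1 CPM (-0.86, adjusted p = 0.032). Psen2, a subunit of gamma-secretase, measured 71.6, 56.3 and 58.6 CPM and 38.04, 35.2 and 39.9 CPM (-0.72, adjusted p = 0.0353). The largest decreases, at low levels, were those of Nxpe2, Lrtm1 and the noncoding RNA Platr4, with log2 fold changes of -1.87, -1.86 and -1.94. Lrtm1 lies opposite Cacna2d3 on the other strand.

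Also lower were Nup210, a component of the nuclear pore, and 3 genes of zinc finger or KRAB proteins. Nup210 measured 29.9, 27.3 and 31.4 CPM in NTC-CCl4 and 18.1, 15.9 and 18.5 CPM in sgBap1-CCl4 livers (-0.75, adjusted p = 0.0189). Zfp810, Krba1 and Zfp512b had log2 fold changes of -0.80, -0.67 and -0.65, with adjusted p of 0.0497, 0.0347 and 0.0353.

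The decreases also held 3 genes of antigen presentation and interferon responses. Psmb8, a catalytic subunit of the immunoproteasome, measured 66.2, 53.9 and 60.1 CPM in NTC-CCl4 and 39.6, 40.1 and 43.6 CPM in sgBap1-CCl4 livers (-0.55, SE 0.08, adjusted p = 0.0347). Tap2, which carries peptides into the ER for class I molecules and whose gene lies beside Psmb8 on chromosome 17, measured 51.2, 48.1 and 48.8 CPM and 35.7, 32.6 and 39.00 CPM (-0.46, adjusted p = 0.0445). Cxcl11, a chemokine gene annotated as a polymorphic pseudogene that overlaps Art3 on the other strand, measured 6.03, 4.92 and 6.56 CPM and 3.24, 2.98 and 3.55 CPM (-0.84, adjusted p = 0.0479). In the uninjured livers sgBap1 values of Psmb8 were the higher ones, 51.3 and 49.7 CPM against 40.7 and 40.8 CPM, but the difference was not called (0.31, adjusted p = 0.25).

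Leaving out sgBap1-CCl4 replicate 2 lowered the number of calls. Without it, 24 genes were called (0.143% of the 16825 tested), 20 of them among the 56. These 20 were Gm8818, Klrg2, Gm15889, 9430037G07Rik, Bcl6, Per1, Etfbkmt, Ip6k2, Herpud1, Foxo1, Cep85l, Klf15, Slc25a51, Tbc1d8, Hsph1, Pfkfb2, Bap1, Nup210, P2ry2 and Cdcp1. The list members Phgdh, Klf6, Tap2, Psmb8, Ces2g and Cxcl11 were among those no longer called. All 56 kept their direction, as genes without overlap between the groups must. All 56 had an unadjusted p under 0.05, their adjusted p reached at most 0.15, and no log2 fold change moved by more than 0.25. The 56 were chosen with this liver included, which favours genes where it goes with its group. Nothing is therefore read from these p-values and shifts. The 4 genes called only without it were Plin4, a lipid droplet coat protein (1.37, adjusted p = 0.0344), Acss3, a mitochondrial acyl-CoA synthetase (-1.02, adjusted p = 0.0344), Ly6d, a surface protein of progenitor cells (-0.91, adjusted p = 0.034), and Vnn3, a pantetheinase (-0.76, adjusted p = 0.0465). Plin4 measured 5.91, 6.71 and 8.77 CPM in NTC-CCl4 and 15.8, 47.6 and 21.1 CPM in sgBap1-CCl4 livers, so it was above every NTC-CCl4 liver also where adipocyte markers were low. Acss3 measured 8.38, 6.42 and 6.27 CPM and 3.52, 8.63 and 3.42 CPM, with replicate 2 alone among the sgBap1-CCl4 livers at the NTC level.

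The called genes could be read against 43 lists of pathways and cell type markers. Of their genes 688 were tested and 11 were called (1.6%), beside 0.329% of all tested genes. The lists were chosen with earlier results of these data known, so nothing is read from this difference. The immediate early genes, which growth factors and stress induce within minutes, had the highest median of the pathway lists. Of 20 tested, 19 had a positive log2 fold change, 14 had an unadjusted p under 0.05 and all 14 were higher, beside 6.32% of all genes, and Klf6 alone was called. The median was 0.64, and 0.58 without replicate 2. Egr1, an early zinc finger factor, measured 80.5, 57.99 and 76.3 CPM in NTC-CCl4 and 161, 114 and 139.7 CPM in sgBap1-CCl4 livers (0.95, adjusted p = 0.114). Fosb, an AP-1 subunit, measured 2.28, 4.38 and 2.97 CPM and 10.9, 11.6 and 5.89 CPM (1.56, adjusted p = 0.0864). Both were high in all 3 sgBap1-CCl4 livers without reaching the threshold. Maff, Ier3 and the phosphatase gene Dusp1 had log2 fold changes of 0.78, 0.67 and 0.68 with adjusted p of 0.063, 0.0514 and 0.0824. The median of the same list between uninjured livers was 0.03.

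Targets of p53, the factor that arrests damaged cells, also had mostly higher values. Of 20 tested, 18 had a positive log2 fold change and 9 had an unadjusted p under 0.05, all higher, beside 6.32% of all genes, while none was called. The median was 0.27, and 0.24 without replicate 2. Trp53inp1 measured 132, 169 and 114 CPM in NTC-CCl4 and 254, 224 and 246 CPM in sgBap1-CCl4 livers (0.80, adjusted p = 0.054). Mdm2, the ubiquitin ligase of p53, measured 64.02, 62.1 and 63.1 CPM and 85.8, 82.8 and 75.8 CPM (0.37, adjusted p = 0.0787). Between uninjured livers the median of this list was -0.40, and Mdm2 measured 50.8 and 46.2 CPM with NTC and 36.6 and 39.7 CPM with sgBap1.

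Genes of MHC class I and II had mostly lower values with sgBap1. Of 20 tested genes, 17 had a negative log2 fold change, 7 had an unadjusted p under 0.05 and all 7 were lower, beside 7.64% of all genes, and Psmb8 and Tap2 were called. The median was -0.26, and -0.32 without replicate 2. Psmb9, the immunoproteasome partner of Psmb8, measured 26.1, 23.2 and 26.5 CPM and 16.6, 16.5 and 19.7 CPM (-0.52, adjusted p = 0.0866). The class I genes B2m and H2-K1, the most abundant of the list, had log2 fold changes of 0.04 (adjusted p = 0.917) and -0.10 (adjusted p = 0.717). Of 35 interferon-stimulated genes, 30 had a negative log2 fold change and none was called. At an unadjusted p under 0.05, 9 were lower and 2 higher, beside 7.64% and 6.32% of all genes. The list median was -0.23, and -0.19 without replicate 2, the lowest liver for 22 of the 35. Without that liver 5 were lower at an unadjusted p under 0.05. Irf1, an activator of class I genes, had a log2 fold change of -0.46 (adjusted p = 0.114), whereas the antiviral gene Rsad2 had 1.10 (adjusted p = 0.269).

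**Figure D4:**
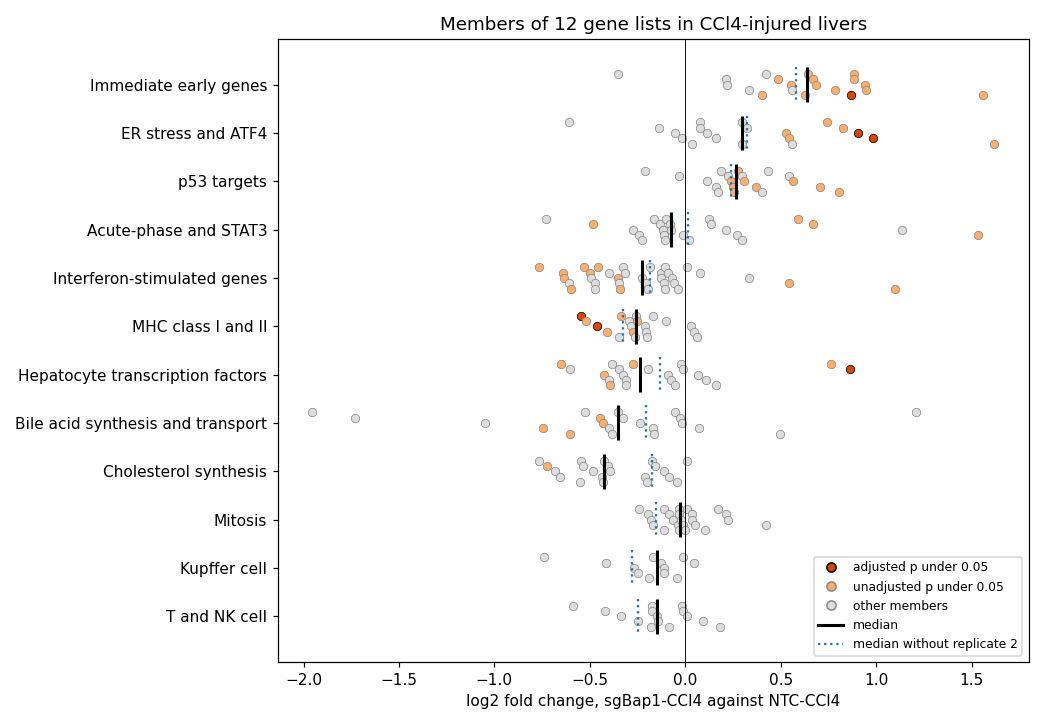
Log2 fold change of sgBap1-CCl4 against NTC-CCl4 for the tested members of 12 lists, with called genes in dark orange, genes at an unadjusted p under 0.05 in light orange, the list median as a black bar and the median without sgBap1-CCl4 replicate 2 as a dotted blue bar. Immediate early genes lie mostly to the right (median 0.64), MHC genes to the left (-0.26), and the cholesterol synthesis median moves from -0.43 to -0.18 without replicate 2.

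In several lists of hepatocyte function the median was negative and was higher without replicate 2. Cholesterol synthesis had a median of -0.43 with all livers and -0.18 without it, and bile acid synthesis and transport -0.35 and -0.21. Hepatocyte transcription factors had -0.24 and -0.13, and genes of fatty acid oxidation and PPARalpha -0.10 and -0.02. Replicate 2 was the lowest of the 6 livers for 20 of the 21 cholesterol genes and 15 of the 22 bile acid genes. It was also lowest for 16 of the 22 transcription factors and 16 of the 22 fatty acid oxidation genes. Lss, a cyclase of sterol synthesis, measured 89.8, 111 and 124 CPM in NTC-CCl4 and 66.1, 44.1 and 96.2 CPM in sgBap1-CCl4 livers, so the third sgBap1-CCl4 liver lay within the NTC range (-0.66, adjusted p = 0.359). Slc10a1, the bile acid importer, measured 107, 128 and 121 CPM and 79.98, 44.8 and 87.4 CPM (-0.74, adjusted p = 0.161). The part of the fat-cell and fibroblast transcripts of this liver in these medians was not tested. Hnf4a, the main regulator of hepatocyte identity, had a log2 fold change of -0.09 (adjusted p = 0.774), and Cebpb, a C/EBP factor of the same list, 0.76 (adjusted p = 0.12). Foxo1, described above, was the only called member of that list, and it was higher (0.86, adjusted p = 0.0189). Among the secreted hepatocyte proteins none of 16 had an unadjusted p under 0.05, with a median of -0.06, and 0.04 without replicate 2.

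Lipid and redox lists held few genes near the threshold. Lpin1, a phosphatidate phosphatase, measured 37.6, 47.4 and 30.3 CPM in NTC-CCl4 and 89.9, 80.2 and 128 CPM in sgBap1-CCl4 livers, 1.37 with an adjusted p of 0.0714, while Acss2 and Gpam of the same fatty acid synthesis list had -0.54 and -0.33 (adjusted p = 0.22 and 0.277). The median of the fatty acid synthesis list was -0.09, and -0.19 without replicate 2. Of the 20 NRF2 targets, 10 had a positive and 10 a negative log2 fold change, with a median of -0.03. Ces2g was called, beside 0.129% of all genes called lower. At an unadjusted p under 0.05, 3 were lower, beside 7.64% of all genes. Osgin1, an oxidative stress growth inhibitor, measured 216, 294 and 292 CPM and 153, 92.3 and 107 CPM (-1.19, adjusted p = 0.0608). Among fetal and progenitor genes, Spp1 (osteopontin), also expressed by macrophages and bile duct cells, measured 180.3, 234 and 181 CPM and 335, 352 and 260.4 CPM (0.67, adjusted p = 0.0853). Ccn2, a YAP target of matrix repair, measured 22.5, 20.3 and 25.3 CPM and 43.1, 59.9 and 41.4 CPM (1.08, adjusted p = 0.054).

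Genes of proliferation did not pass the test in either direction. None of 26 DNA replication and none of 24 mitosis genes had an unadjusted p under 0.05, with medians of -0.01 and -0.03. Without replicate 2, the highest liver for 9 of the mitosis genes, the medians were -0.04 and -0.15, and 21 of the 24 mitosis genes were negative. Birc5, a mitotic regulator, measured 28.1, 18.3 and 23.6 CPM in NTC-CCl4 and 22.8, 34.3 and 24.6 CPM in sgBap1-CCl4 livers.

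The remaining pathway lists had medians between -0.12, for genes of pericentral hepatocytes, and 0.10, for TGF-beta and activin. Without replicate 2 these 2 medians were 0.01 and 0.05. Periportal hepatocyte genes had a median of 0.01 with all livers and 0.16 without replicate 2, and genes of insulin and gluconeogenesis 0.04 and 0.16. Of the members of the remaining lists Foxo1 and Cxcl11, described above, were called. Axin2, a target of Wnt signalling around the central vein, measured 2.58, 5.54 and 3.98 CPM in NTC-CCl4 and 1.53, 1.90 and 1.55 CPM in sgBap1-CCl4 livers (-1.28, adjusted p = 0.096). Cyp2f2, a periportal cytochrome, measured 121, 102 and 151 CPM and 75.4, 69.4 and 66.4 CPM (-0.83, adjusted p = 0.108). Nfkbia, the inhibitor that NF-kB induces, measured 32.98, 36.4 and 35.3 CPM and 41.4, 45.3 and 46.3 CPM (0.34, adjusted p = 0.0864). The groups did not overlap for Nfkbia and its difference was small.

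Markers of the other cell types a liver holds were counted in the same way. No Kupffer cell, T and NK cell, neutrophil, dendritic cell, B and plasma cell, endothelial, stellate or cholangiocyte marker was called. Kupffer cell markers summed to 806 to 1322 CPM in NTC-CCl4 livers and 731 to 1064 CPM in sgBap1-CCl4 livers, with a median log2 fold change of -0.15, and -0.28 without replicate 2, where all 12 were negative. Timd4, a receptor of resident Kupffer cells, measured 8.49, 5.47 and 14.7 CPM and 4.29, 6.76 and 5.99 CPM (-0.74, adjusted p = 0.394). T and NK cell markers had a median of -0.15, and -0.25 without replicate 2, and B and plasma cell markers -0.21 and -0.30. Of 13 recruited macrophage markers, Cd14 and Lgals3 were among the 3 that were higher at an unadjusted p under 0.05, beside 6.32% of all genes, with log2 fold changes of 0.65 and 0.62 (adjusted p = 0.177 and 0.2). The median of that list was 0.15 with all livers and -0.02 without replicate 2, the highest liver for 10 of the 13. The erythroid list, of red blood cell genes, had a median of -0.82. At an unadjusted p under 0.05, 4 of its 6 members were lower, beside 7.64% of all genes, and none was so without replicate 2. Hba-a2, an alpha globin nearly identical to Hba-a1, measured 305, 858 and 583 CPM and 360.1, 312 and 271 CPM, with the NTC-CCl4 livers widely spread. Stellate cell and fibroblast markers had a median of 0.34 with all livers and -0.06 without replicate 2, mesothelial markers 0.49 and 0.02, and the 9 tested adipocyte markers 1.91 and -0.25. The exocrine pancreas markers summed to at most 0.192 CPM in any injured liver.

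Whether the guide acts differently after injury was asked of the same genes in uninjured livers, with which the injured comparison shares no liver. Between sgBap1-Veh and NTC-Veh livers 69 genes were called (0.406%). Of the 56 genes called after CCl4, 3 were also called there, namely Bap1, Bcl6 and Tmc7. Bap1 fell in both, and its value without injury was -0.91 (SE 0.12, adjusted p = 0.0208). Bcl6 rose in both, with 1.87 (SE 0.22, adjusted p = 0.0191) without injury. Tmc7 went in opposite directions, with 5.58 and 4.21 CPM in NTC-Veh and 2.48 and 2.21 CPM in sgBap1-Veh livers (-1.06, adjusted p = 0.0496). In all, 37 of the 56 (66.1%) had the same sign in both treatments, against 55.2% of all tested genes.

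No gene passed an adjusted p of 0.05 for the interaction of guide and treatment, the smallest being 0.0694, although 1764 genes had an unadjusted p under 0.05. DESeq2's Wald test called 411 interactions. Of the 56 genes, 38 had an unadjusted interaction p under 0.05, against 10.4% of all tested genes, and 13 an adjusted p under 0.1, against 90 of 17015. The 56 were chosen on the CCl4 difference that enters the interaction, so nothing is read from these counts. The interaction, the log2 fold change after CCl4 minus that without injury, was 1.90 for Pim3 (adjusted p = 0.0694) and 2.00 for Tmc7 (adjusted p = 0.0694). It was -1.06 for P2ry2 (adjusted p = 0.0694) and -1.32 for Akr1d1 (adjusted p = 0.0777). Bap1 and Bcl6 had interactions of 0.26 (adjusted p = 0.616) and -0.42 (adjusted p = 0.653).

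**Figure D5:**
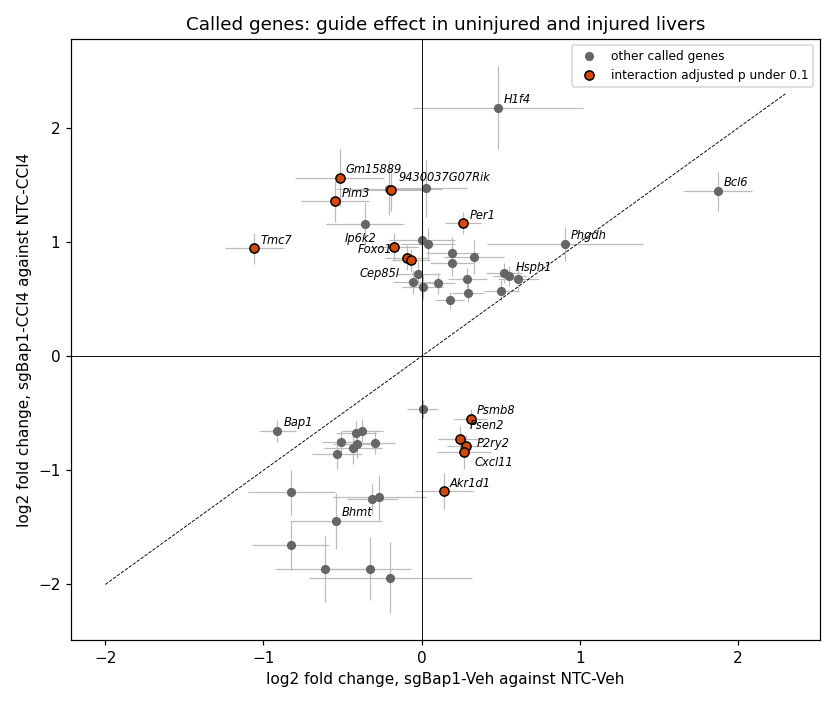
Log2 fold change of sgBap1 against NTC in uninjured (x axis) and CCl4-injured (y axis) livers for 52 of the 56 called genes, with SE bars, a dashed line of equal values, and the 13 genes with an interaction adjusted p under 0.1 in orange. Bap1 and Bcl6 lie near the dashed line, Tmc7 lies at the upper left, and Gm8818, Klrg2, S100g and Zan, whose SE without injury was at least 0.6, are not drawn.

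Several lists had a median of the other sign between uninjured livers. MHC class I and II genes had a median of -0.26 after CCl4 and 0.70 without injury, with 16 of 20 at an unadjusted interaction p under 0.05, all in the same direction. Interferon-stimulated genes had -0.23 and 0.54, with 22 of 35, and Kupffer cell markers -0.15 and 0.95, with 10 of 12. The p53 targets had 0.27 and -0.40, with 13 of 20, and the opposite order of signs. Beside these stands the share among all tested genes, 10.4%. The lists were chosen with earlier results of these data known, and no gene passed an adjusted p of 0.05 for the interaction. These counts therefore describe the livers and nothing further is read from them. Of the 47 genes called higher without injury, 17 were higher after CCl4 (median -0.04), and of the 22 called lower, 16 were lower (median -0.15). H2-Ab1, a class II gene that antigen-presenting cells express, measured 21.2 and 21.3 CPM in NTC-Veh and 61.2 and 50.2 CPM in sgBap1-Veh livers, but 34.4, 37.3 and 47.99 CPM in NTC-CCl4 and 28.7, 41.1 and 33.99 CPM in sgBap1-CCl4 livers, where the groups overlapped.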

How the data were processed

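Poly(A) RNA of mouse liver was sequenced from stranded libraries, per the methods of the study as 2 reads of 50 bases. The authors aligned reads with STAR 2.7.6a to GRCm38 and quantified genes with Salmon 1.4.0 and GENCODE release 25. The deposited table holds their estimated counts for 55291 genes in 10 livers. Of its values 9.22% were not whole, and all were rounded. The authors tested with DESeq2.

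Here edgeR 4.0.16 in R 4.3.3 was used. filterByExpr kept 17015 genes, counts were TMM-normalized, and 1 quasi-likelihood model with robust dispersions was fitted to the 4 groups. Contrasts were sgBap1 against NTC after CCl4, the same with vehicle, and their difference, each adjusted by Benjamini-Hochberg. Other fits used limma-voom 3.58.1, DESeq2 1.42.0, other scalings and filters, the 2 groups alone, a replicate block, and each liver left out. The edgeR 3 form of the quasi-likelihood test was added after seeing the data. The fit was also run on counts simulated with the means, library sizes and dispersions of these livers. No simulated liver was set apart like sgBap1-CCl4 replicate 2, so that run does not bear on the dependence on single livers. A result over 3 against 3 livers alone cannot go below an exact permutation p of 0.1.

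The genes and gene lists were chosen with earlier results of these data known. The text names Bap1, the 15 called genes with the largest change in each direction (mean of at least 1 CPM, no overlap), called list members, and for each list the 2 highest and up to 4 smallest p. Other called genes, further list members, the 5 motifs and the heat shock and glucocorticoid lists were chosen after their values were seen. Gene positions and shared 50-base stretches came from GENCODE release 21 (GRCm38), and upstream windows from RefSeq GRCm38.p6.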

Additional observations from a re-analysis of the deposited data

How the results depend on the processing

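No called gene changed direction under any alternative run. For the runs with a liver left out this was fixed beforehand, because the groups did not overlap for any called gene. Under the 9 alternatives that keep all livers, 12 of the 56 genes stayed called in each. After CCl4 the number of called genes was 480 with DESeq2's Wald test (200 higher, 280 lower), 94 without a filter on low counts, 28 with the 2 groups fitted alone and 24 with the replicate block, and 1 to 71 with 1 liver left out. By library size alone it was 62, 50% of them higher against 60.7%. The number with vehicle was 548 with DESeq2's Wald test, 32 by library size alone, 26 with limma-voom, 27 with the 2 groups alone, 1 with the replicate block and 22 to 150 with 1 CCl4 liver left out. Interactions numbered 411 with DESeq2's Wald test, 2 by library size alone, 34 without a filter and 0 to 7 with 1 liver left out. Bap1 missed the threshold by library size alone (-0.63, adjusted p = 0.0646), with the 2 groups alone (-0.65, adjusted p = 0.0766) and with the replicate block (-0.66, adjusted p = 0.0552), and was -0.75 to -0.57 with 1 liver left out. Called list members numbered 51 with DESeq2's Wald test, 6 with the 2 groups alone, 3 with the replicate block and 1 to 13 with 1 liver left out. Medians of at most 9 of the 43 lists moved by more than the spread between replicates. The cause of these changes was not tested.

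Replicate numbers did not pair the livers. Deviations from the group means of livers with the same number had correlations of 0.0107, 0.021 and -0.149 after CCl4, over genes, and not every liver correlated best with its own number. The replicate block kept 19 of the 56 calls. With vehicle left at 1 liver in a group, that liver was assumed to vary like the others. Low counts limited 3 of the called genes, which had a mean under 1 CPM.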

Other observations

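Heat shock genes, the chaperones that refold damaged proteins, and glucocorticoid-responsive genes were listed after the called genes had been seen, so their counts describe these livers and support no direction. Of 18 heat shock genes 17 had a positive log2 fold change after CCl4, beside 50.4% of all genes. At an unadjusted p under 0.05, 11 were higher, beside 6.32% of all genes. Hsph1 and Dnajb1 were called, beside 0.2% of all genes called higher. The list median was 0.33, against 0.32 without sgBap1-CCl4 replicate 2 and 0.18 between uninjured livers. Of 18 glucocorticoid-responsive genes 15 had a positive log2 fold change, and Per1, Klf15 and Cebpd were called, beside the same shares. At an unadjusted p under 0.05, 9 were higher and 1 was lower, beside 6.32% and 7.64% of all genes. The list median was 0.58, against 0.52 without replicate 2 and -0.14 between uninjured livers.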
